A study of Mus musculus with 2 samples.

Results

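The genes described here are 10 mouse genes of lipoprotein and cholesterol handling, namely Apoe, Apoc1, Apoc2, Apoa2, Abca1, Abcg1, Lpl, Nr1h3, Pltp and Lipa. They were chosen by symbol, with their values in these libraries known, and each was found on 1 row of both deposited tables, so that 10 of 22886 genes are covered. The tables come from 2 RNA sequencing libraries of FACS-sorted cells that the labels call aerobic tumor cells. The cells came from subcutaneous Lewis lung carcinoma (LLC) tumors, a transplantable mouse lung tumor, in wild type C57BL/6 mice. One group of mice was injected with vehicle and the other with clodronate, a drug that is given in liposomes to kill macrophages that swallow them. There was 1 library per condition, so no difference between them can be set against replicate error, and no p-value is given. Intervals given below for Apoa2 and Apoc1 cover counting error only. The labels name neither the sort gate nor the number or age of the mice, and a growth protocol among them names a blood progenitor line, which goes against the other labels.

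Cells cannot break down the ring system of cholesterol, and macrophages that have taken up lipoproteins or dead cells must store it or export it. Lysosomal acid lipase, the product of Lipa, frees cholesterol from its esters, the transporters ABCA1 and ABCG1 pass it across the plasma membrane, and apolipoprotein E and other apolipoproteins accept it in lipoprotein particles. The nuclear receptor LXR alpha, encoded by Nr1h3, is activated by oxidised cholesterol and raises transcription of several of these genes, Abca1, Abcg1, Apoe, Pltp and Lpl among them.

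Sequences before the start site of 3 genes are shown because they mark the points of this set: Abca1 as a gene known to be controlled by LXR, Apoe as the most abundant member and Apoa2 as the member that differed most between the libraries. Each gives the 150 bases before the start, 5′ to 3′ on the strand of the gene, from RefSeq on GRCm38.p6. Capitals mark letters that match, on either strand, GGTNA, any 5 bases and GGTNA again, a relaxed spelling of the repeat to which LXR binds, or AGGTCA or TATAAA.
Abca1 (chr4:53159896-53160045, minus strand): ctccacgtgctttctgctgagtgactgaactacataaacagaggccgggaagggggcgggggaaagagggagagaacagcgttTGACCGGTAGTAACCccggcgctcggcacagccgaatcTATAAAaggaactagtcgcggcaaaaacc
Apoe (chr7:19699189-19699338, minus strand): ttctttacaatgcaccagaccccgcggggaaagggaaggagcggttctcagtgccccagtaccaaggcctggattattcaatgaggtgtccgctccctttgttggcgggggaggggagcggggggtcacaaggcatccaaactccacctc
Apoa2 (chr1:171224904-171225053, plus strand): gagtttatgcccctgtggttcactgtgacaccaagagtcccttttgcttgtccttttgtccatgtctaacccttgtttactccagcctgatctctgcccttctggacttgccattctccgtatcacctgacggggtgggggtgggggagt
The Abca1 sequence holds the repeat on the reverse strand from position -67 to -53 and TATAAA from -29 to -24, counted from the start site. A match to the repeat lay within the 250 bases before the start in 0.621% of 32851 RefSeq windows. Of the 7 members with a window, Abca1 was the one that held it. Apoc1, Abcg1 and Lpl had no window and could not be searched. TATAAA was found in 12.4% of the windows and in those of Abca1, Apoa2, Apoe and Lipa. AGGTCA was found in 14.0% and in those of Apoa2 and Apoc2. Some genes have several windows, and a member was named if any of its windows matched. The shares of windows and the members named are thus in unlike units and are not compared. The matches of Apoe and Apoa2 lay outside the bases printed here. These matches are letters in a short window and no evidence of binding.

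The sorted cells carried the defining genes of macrophages at high levels in both libraries. Levels are given as RPKM, reads scaled to transcript length and library size so that genes can be compared. By an estimate given under processing, the length used was about 171 nt shorter than the transcript. This matters most for short transcripts such as those of Apoc1, Apoa2 and Apoc2. Its effect on comparisons between genes was not tested. The 12 macrophage markers ranged from 108 to 10534 RPKM in the vehicle library and from 103 to 11189 RPKM in the clodronate library. Their sum was 26592 and 25383 RPKM. The median log2 ratio of these markers, clodronate over vehicle, was 0.034, with 7 higher and 5 lower. Single markers ran from -0.96 for C1qc to 0.73 for Mrc1. A gene listed at 0 may be a failed estimate as well as a low level. Of 114 ribosomal protein and proteasome genes, which cells in general use and which were picked after seeing the data without the l-suffixed paralogs, 0 were listed at 0 in either library. This count covers these genes alone. How often other genes, such as those at low levels, are listed at 0 through a failed estimate was not tested. Of 10 hepatocyte genes 7 were listed at 0 in both libraries, Alb, Fga and Apob among them, and the exception with a clear level was Trf at 58.1 and 71.6 RPKM, the gene of transferrin, which other cells make as well. Of 6 adipocyte genes 5 were listed at 0 in both libraries, including Adipoq and Plin1, and the highest value was 0.575 RPKM. Fibroblast genes reached clear levels, led by Dcn with 77.3 and 28.4 RPKM and Col3a1 with 62.1 and 34.4 RPKM, both above the median of the genes kept, 11.1 and 11.3 RPKM. Of the 6 fibroblast genes whose values averaged 1 RPKM or more, 5 were lower with clodronate. Col1a1 was higher, at 2.32 and 5.40 RPKM, and Col1a2 was nearly level, at 2.01 and 1.94 RPKM. The 7 fibroblast genes summed to 154 RPKM with vehicle and 75.4 RPKM with clodronate, and the 6 epithelial or tumor genes to 12.8 and 11.0 RPKM, with Epcam listed at 0 in both. The 6 endothelial genes summed to 2.37 and 8.41 RPKM, the 6 T and NK cell genes to 0.837 and 2.05 RPKM, the 4 B cell genes to 2.99 and 1.74 RPKM and the 5 dendritic cell genes to 5.49 and 4.36 RPKM. Of the 5 neutrophil genes found, S100a8 had 12.7 and 23.1 RPKM and the other 4 were listed at 0 in both, S100a9 included, whose protein pairs with that of S100a8. The part of any of these cells in the values below was not tested, and in bulk RNA fewer cells of a type and less RNA per cell cannot be told apart.

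The set was dominated by Apoe, and 9 of the 10 genes differed by less than 2-fold between the libraries. On the log2 ratio of RPKM + 1, clodronate over vehicle, 5 members were higher and 5 lower in the clodronate library. Their median was 0.026, beside 0.019 over the 10982 genes kept, those whose 2 values averaged 1 RPKM or more. Of those 10982 genes 86.3% lay within 2-fold, beside 9 of the 10 members. At a threshold of 3-fold no member was higher, where the background was 2.86% of genes. One member, Apoa2, was at least 3-fold lower, where the background was 2.32% of genes, or 5.18% in both directions together. At 2-fold the same member passed, where the background was 6.95% of genes for higher, 6.77% for lower and 13.7% for both. As Apoa2 was chosen with its value known, nothing is read from this count. The 10 genes summed to 5595 RPKM with vehicle and 4503 RPKM with clodronate, and Apoe made up 86.2% and 80.6% of that. Without Apoe the other 9 summed to 771 and 873 RPKM.

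**Figure D1:**
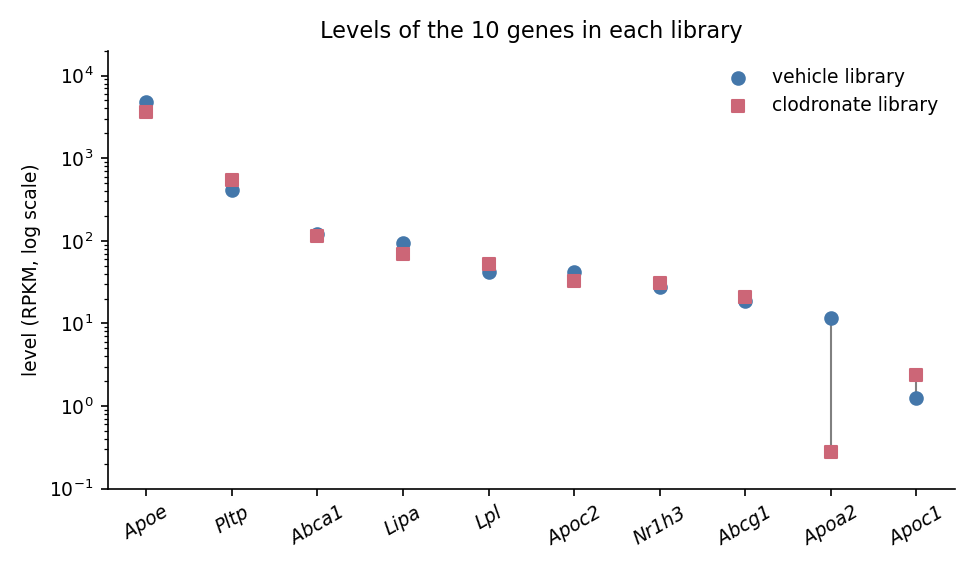
Level of each of the 10 genes in RPKM on a log axis, with 1 point for the vehicle library (circle) and 1 for the clodronate library (square), joined by a line. Apoe stood highest at 4824 and 3630 RPKM, and Apoa2 was the member with a wide gap, at 11.6 and 0.280 RPKM.

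The order of the levels was the same in both libraries for the upper 8 genes: Apoe, Pltp, Abca1, Lipa, Lpl, Apoc2, Nr1h3 and Abcg1. Apoa2 ranked above Apoc1 in the vehicle library and below it in the clodronate library. Lpl and Apoc2 were nearly level in the vehicle library, at 42.2 and 42.1 RPKM. With 1 library per condition there is no spread against which neighbours in this order could be said to differ.

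**Figure D2:**
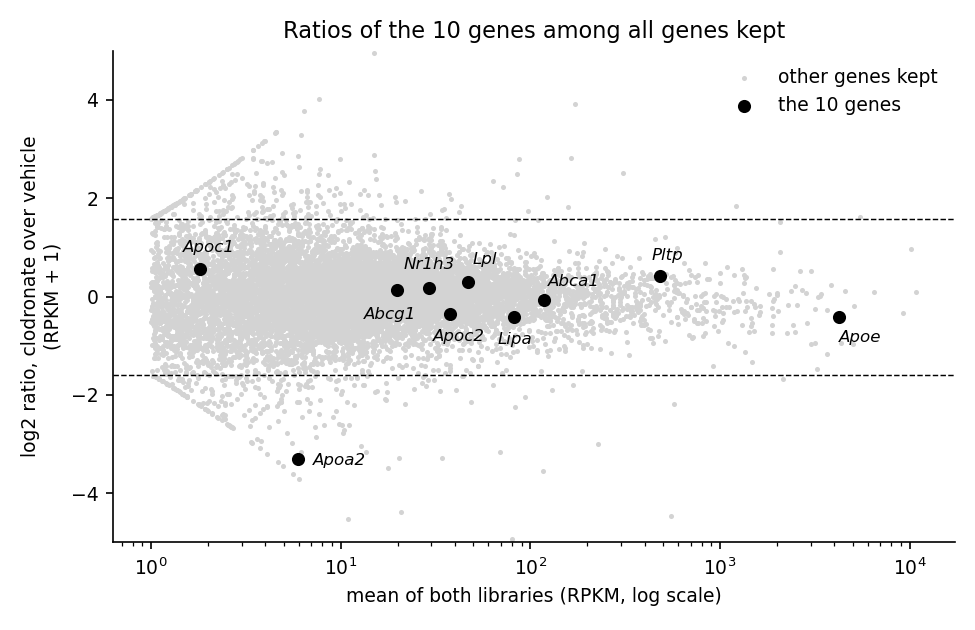
Log2 ratio of RPKM + 1, clodronate over vehicle, against the mean RPKM of both libraries on a log axis, for the 10982 genes kept (grey) and the 10 members (black). Dashed lines mark 3-fold, and 46 genes beyond a log2 ratio of 5 in either direction lie outside the axis. Of the members Apoa2 lies outside the lines, at -3.30.

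Among the apolipoproteins, Apoe is the ligand by which remnant particles are taken up through receptors of the LDL receptor family, and macrophages are one of its main sources outside the liver. Apoe stood at 4824 RPKM with vehicle and 3630 RPKM with clodronate. It was the 10th most abundant of 22886 genes in both. The clodronate value was lower, with a log2 ratio of -0.41, and 47.7% of the genes kept had a ratio at least as far from 0. Apoe accounted for 0.802% of all RPKM in the vehicle and 0.609% in the clodronate library. The genes closest to Apoe in level in both libraries, by distance on the log2 scale over the 2 values, were Tmsb4x, with 4024 and 3347 RPKM, Lyz1, with 5688 and 2948 RPKM, and Ftl1, with 4387 and 4766 RPKM.

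Apoc2 encodes apolipoprotein C-II, the cofactor without which lipoprotein lipase does not work. It had 42.1 RPKM with vehicle and 32.8 RPKM with clodronate, a log2 ratio of -0.35. Its level stood in a similar proportion to Apoe in both libraries, with 115 times as much Apoe as Apoc2 in the vehicle library and 111 times as much in the clodronate library. Apoc1 encodes a small apolipoprotein that slows the uptake and breakdown of remnant particles. Its level was 1.27 RPKM with vehicle and 2.35 RPKM with clodronate, a log2 ratio of 0.57. These values rest on an estimated 4.54 to 6.29 fragments and 6.90 to 9.54 fragments, depending on which of its transcripts is taken. With these rounded to 5 and 7 fragments, the exact 95% interval of the vehicle over the clodronate level ran from 0.146 to 2.13 and covered equal levels. With the longer transcript, at 6 and 10 fragments, the interval ran from 0.146 to 1.49 and also covered equal levels. As Apoc1 was chosen with its value known, these intervals are a description and are not read as a test.

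Apoe, Apoc1, Apoc4 and Apoc2 lie side by side on chromosome 7, and their levels were far apart. In the coordinates of the files, which use the mm9 build, Apoe spans chr7:20281593-20284515. Apoc1 spans chr7:20274830-20278007, 3.59 kb from Apoe, and had less than 0.1% of its level in both libraries: 0.026% in the vehicle and 0.065% in the clodronate library. Apoc4 lies 14.8 kb from Apoe and was listed at 0 in both libraries. Apoc2 spans chr7:20256928-20262213, 19.4 kb from Apoe, and had 0.872% and 0.905% of the level of Apoe. On the other side lies Tomm40, which encodes a channel of the outer mitochondrial membrane, at 2.15 kb, with 15.0 and 18.2 RPKM.

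**Figure D3:**
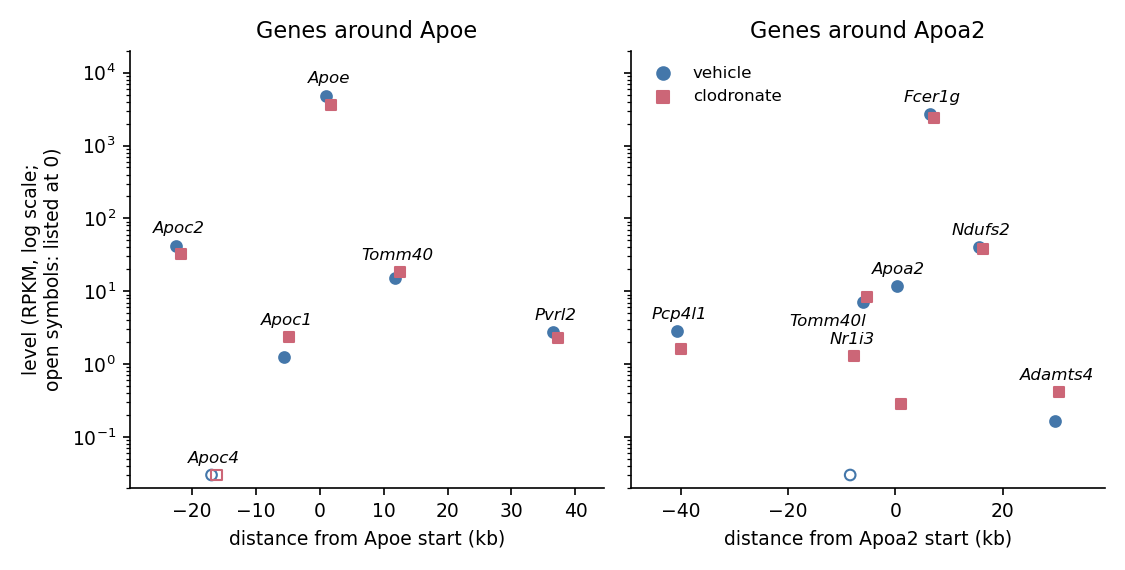
Level in RPKM on a log axis against the distance of the middle of each gene from the start of Apoe (left) and of Apoa2 (right) in kb, for genes within 30 kb of either. Circles are the vehicle library, squares the clodronate library and open symbols genes listed at 0, and Apoe and Fcer1g stand far above their neighbours in both libraries.

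Apoa2 encodes apolipoprotein A-II, a protein of high density lipoprotein that is made mainly by hepatocytes. It stood at 11.6 RPKM with vehicle, rank 5315 of all genes, and at 0.280 RPKM with clodronate, rank 12235. The log2 ratio was -3.30, and 0.583% of the genes kept were at least as far from 0. With no pseudocount the level was 41.6-fold lower in the clodronate library.

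The low values of the tables rise in steps, which gave the number of fragments behind this difference. Loci with 1 to 4 fragments formed separate peaks in both libraries, and 74.0% of 411 loci in the vehicle and 73.4% of 749 loci in the clodronate library lay within 0.1 of a whole number, where evenly spread values would give 20%. The steps correspond to about 13800000 fragments in the vehicle and 11200000 in the clodronate library, if the authors applied no further scaling. The clodronate value of Apoa2 comes to an estimated 1.09 fragments and was taken as 1, and the vehicle value is 51.0 times as many. For 51 against 1 fragment the exact 95% interval of the fold ran from 7.14 to 1676, which covers counting error between these libraries and not the variation between mice or sorts. As Apoa2 was chosen with its value known, this interval is a description and is not read as a test. Fragments are not known to be independent molecules.

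**Figure D4:**
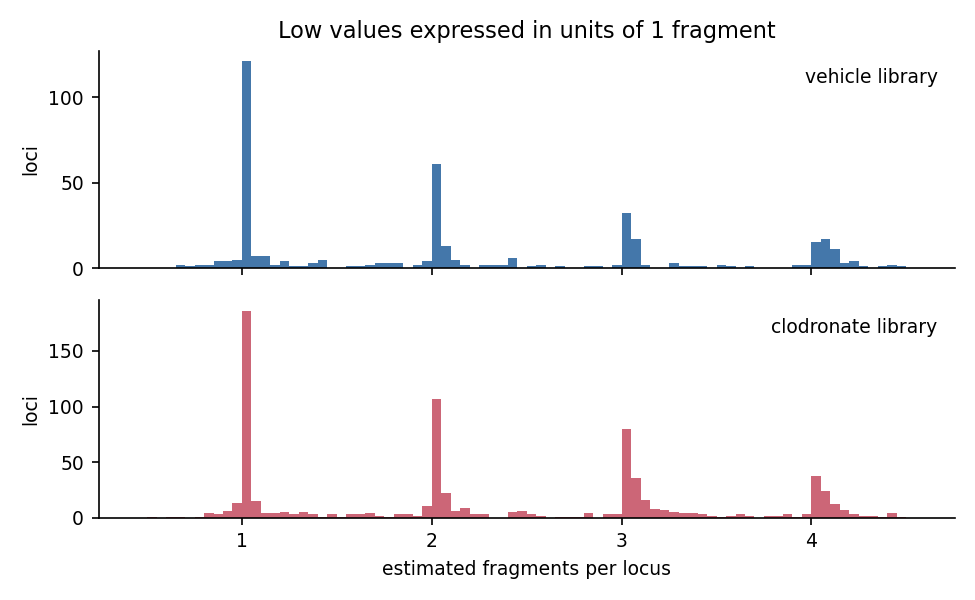
Number of loci against the estimated number of fragments per locus, for single-transcript loci longer than 1000 nt with an estimate from 0.5 to 4.5 fragments, in the vehicle library (upper panel, 411 loci) and the clodronate library (lower panel, 749 loci). Peaks stand at whole numbers in both.

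The genes of a similar level are given as a description, from which nothing is read, since Apoa2 was chosen with its value known. Of 4278 genes with a vehicle level within 2-fold of that of Apoa2, 12 genes, or 0.281%, were as many times lower in the clodronate library, 9 of them listed at 0 there. In the other direction, of 4238 genes with such a level in the clodronate library, 15 genes, or 0.354%, were as many times lower in the vehicle library, 13 of them listed at 0. The gene whose values were closest to those of Apoa2 was Enkur, with 11.9 and 0.446 RPKM. Apoa2 spans chr1:173155185-173156510 in mm9. Fcer1g, the gene of the Fc receptor gamma chain, starts 3.19 kb to its right and had 2690 and 2397 RPKM. To its left, Nr1i3 and Tomm40l share 1 span that ends 2.54 kb away. Nr1i3 was listed at 0 with vehicle and had 1.29 RPKM with clodronate, and Tomm40l had 7.13 and 8.41 RPKM. No neighbour within 30 kb was lower in the clodronate library by a comparable factor. The hepatocyte genes Alb, Ttr, Fgb, Fga, Ahsg, Apob and Apoh were listed at 0 in both libraries, the vehicle library that held Apoa2 included. Apoa1, the partner of Apoa2 in high density lipoprotein, was listed at 0 with vehicle and had 0.569 RPKM with clodronate.

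The exporters and their regulator were close to level between the libraries. Abca1, which hands cholesterol and phospholipid to lipid-poor apolipoproteins, had 120 RPKM with vehicle and 114 RPKM with clodronate, a log2 ratio of -0.077, and 89.1% of the genes kept were at least as far from 0. Abcg1, which passes cholesterol on to mature high density lipoprotein, had 18.9 and 20.7 RPKM, a log2 ratio of 0.13. Abca1 was thus the more abundant, 6.39-fold in the vehicle and 5.51-fold in the clodronate library. Nr1h3 had 27.2 and 31.0 RPKM, a log2 ratio of 0.18. The related receptor LXR beta, encoded by Nr1h2, was the more abundant of the pair, with 52.7 and 57.3 RPKM, which is 1.94 and 1.85 times the level of Nr1h3. The genes nearest in level were Prdx2 for Abca1, Coa5 for Abcg1 and Ppp5c for Nr1h3.

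Pltp encodes phospholipid transfer protein, which moves phospholipid between lipoproteins in plasma and remodels high density lipoprotein. It was the second most abundant member, at 414 RPKM with vehicle and 550 RPKM with clodronate, a log2 ratio of 0.41. Because Pltp was higher and Apoe lower, Pltp stood at 8.58% of the level of Apoe in the vehicle library and at 15.2% in the clodronate library. Lipa had 93.8 RPKM with vehicle and 69.8 RPKM with clodronate, a log2 ratio of -0.42, which 46.5% of the genes kept matched or passed. Lpl, the enzyme that splits triglyceride of lipoproteins outside the cell, had 42.2 and 51.8 RPKM, a log2 ratio of 0.29. As its cofactor Apoc2 went the other way, Lpl went from about level with Apoc2 with vehicle to 1.58 times its level with clodronate. The genes nearest in level were Pgam1 for Pltp, Leprot for Lipa, Tmem43 for Lpl, Tcf12 for Apoc2 and Gemin5 for Apoc1.

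Counting error was small for most of these members. Apart from Apoc1, Apoa2 and Apoc2, each rested on at least 568 estimated fragments in either library, and Apoc2 on 230.5 to 322 fragments in the vehicle and 147 to 205 in the clodronate library. What limits these comparisons is that each condition is 1 library.

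Of the other genes of the pathway 67 passed the filter on low values and 1 of them was past 3-fold, where the background was 5.18% of genes. Of 11 further apolipoproteins 6 were listed at 0 in both libraries. Clu, which encodes the extracellular chaperone clusterin, passed the filter on low values, with 4.52 and 1.44 RPKM. Its log2 ratio of -1.18 stayed short of 3-fold because of the pseudocount of 1 RPKM. Apod was listed at 0 with vehicle and had 1.34 RPKM with clodronate. Of the 9 genes found of the apolipoprotein L family 7 were listed at 0 in both. Apol8 was listed at 0 with vehicle and had 1.14 RPKM with clodronate, and Apol6 had 0.040 and 0.048 RPKM. Of all these apolipoproteins Apoe had the highest level in both libraries, followed by Apoc2.

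Of the other ABCA and ABCG transporters, 6 of 13 passed the filter, with a median log2 ratio of 0.46, 5 higher and 1 lower. That median was 0.099 with no filter and 0.17 after correction for GC content and length. Abca7, a phospholipid transporter related to Abca1, had 15.4 and 16.5 RPKM, and Abca3, which loads surfactant lipid in the lung, had 12.5 and 17.7 RPKM. Among the partners and coregulators of LXR 9 of 10 passed, with a median of 0.32, 7 higher and 2 lower, and the median turned to -0.017 after the same correction. Among other genes known as LXR targets 10 of 12 passed, with a median of -0.037, 5 higher and 5 lower, or -0.18 among genes with a mean from 5 RPKM up. Smpdl3a, a phosphodiesterase gene, had 201 and 114 RPKM, and Arl4c, a small GTPase gene, had 95.7 and 71.3 RPKM. Mylip, which encodes the ligase that degrades the LDL receptor, had 13.3 and 26.3 RPKM, and Srebf1, the regulator of fatty acid synthesis, had 11.9 and 22.2 RPKM. Mylip and Srebf1 were chosen after their values were seen.

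Of the receptors for lipoproteins 11 of 14 passed the filter, with a median log2 ratio of 0.18, 8 higher and 3 lower, or 0.076 after the correction. Lrp1, a receptor for Apoe-bearing remnants, had 225 and 386 RPKM, and Msr1, the scavenger receptor for modified LDL, had 295 and 365 RPKM. Of the partners of lipoprotein lipase and related lipases 6 of 11 passed, with a median of 0.10, 4 higher and 2 lower, which turned to -0.078 after the correction. Pnpla2, the lipase that starts the breakdown of stored triglyceride, had 48.7 and 44.5 RPKM, and Lmf2, a relative of the lipase maturation factor, had 24.8 and 35.4 RPKM. Gpihbp1, which anchors lipoprotein lipase on capillary endothelium and was picked with its values known, was listed at 0 with vehicle and had 0.599 RPKM with clodronate.

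All 14 genes of sterol storage, esterification and export from lysosomes passed the filter, with a median log2 ratio of 0.16, 9 higher and 5 lower, or 0.091 after the correction. Plin2, which coats lipid droplets, had 186 and 255 RPKM, and Npc2, which carries cholesterol out of the lysosome together with a membrane partner, had 168 and 167 RPKM. Ch25h was the gene of these lists past 3-fold, at 5.49 RPKM with vehicle and 26.2 RPKM with clodronate, a log2 ratio of 2.06. It makes a hydroxylated cholesterol that LXR can sense and is known as an interferon-induced gene. All 12 genes of lipid-associated macrophages also passed, with a median of 0.043, 6 higher and 6 lower, a median that ran from -0.042 among genes with a mean from 5 RPKM up to 0.20 after the correction. Ctsb, a lysosomal protease gene, had 2573 and 2811 RPKM, and Lgals3, the gene of galectin, had 677 and 656 RPKM. Trem2, which encodes a lipid receptor that binds apolipoprotein E and was picked with its values known, had 444 and 349 RPKM.

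**Figure D5:**
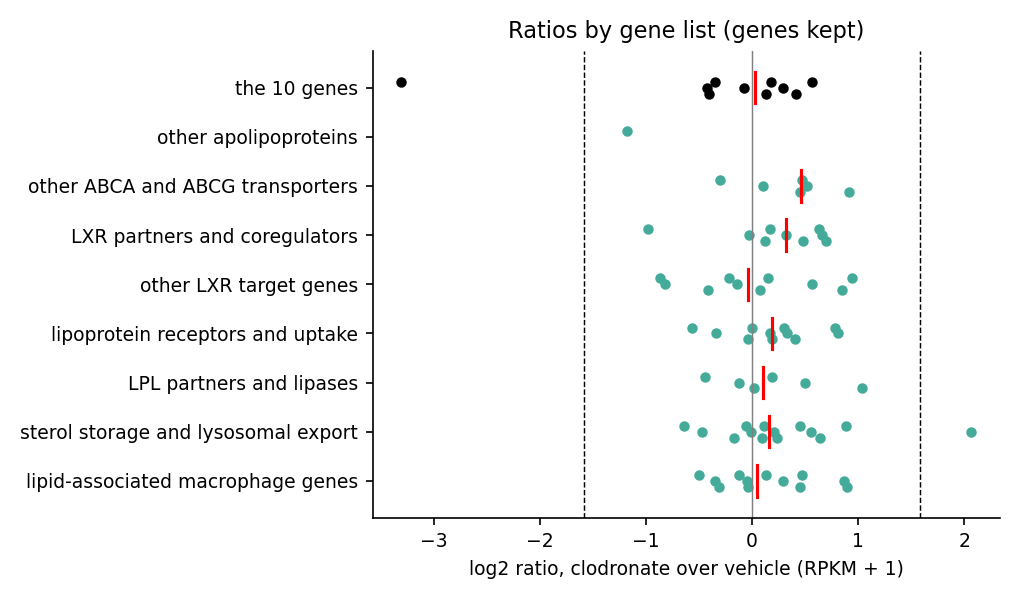
Log2 ratio of RPKM + 1, clodronate over vehicle, for the 10 members and for the kept genes of each pathway list, 1 point per gene, with the median of each list of at least 3 genes as a red line. Dashed lines mark 3-fold, and Apoa2 (-3.30) and Ch25h (2.06) lie outside them.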

How the data were processed

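The authors deposited 1 table per library with RPKM for 23170 loci, named by RefSeq accession and symbol. The submitters' processing notes name CASAVA 1.8.2, TopHat2 2.0.9, Bowtie 0.12.9, Cufflinks 2.2.1, Cuffdiff and the build mm9. Parameters and the annotation release are not given in the sources used here, and the paper that bears the title of the series describes no such tumor libraries. The 26 symbols that were numbers, dates or missing were replaced by accessions, and rows of a symbol were summed, which gave 22886 genes. The start of each locus was raised by 1, after which 7611 of 21491 spans equalled those of RefSeq on GRCm38.p6, against 483 without. Coordinates of the builds were never combined.

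Log2 ratios used a pseudocount of 1 RPKM over the 10982 genes whose 2 values averaged 1 RPKM or more. No count test was run on the RPKM, because these values are normalized. Exact intervals on estimated fragments were computed for Apoa2 and Apoc1. The vehicle over clodronate value of 1 fragment, 0.816, was the most frequent ratio among 1160 loci under 1 RPKM, shared by 72 loci within 0.1%. The size of 1 fragment came from a line through 19 of these loci against the length of their GENCODE M21 transcripts, which subtracted 171 nt from each length. If no further scaling was applied, depth was about 13800000 fragments for vehicle (95% interval of the slope 13300000 to 13900000) and 11200000 for clodronate. Lengths of Apoc2 came from other accessions of its symbol. This step was added after the data were seen. Intervals cover counting error only.

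The members and lists were chosen with earlier results of these data known. Named are the members, genes of the lists that passed 3-fold or had the 2 highest means of a list, the 3 genes nearest to Apoe and the gene nearest to each other member by Euclidean distance over log2(RPKM + 1), with other choices marked. One gene that this rule names is not reported here. Adgre1 and Tf were found as Emr1 and Trf through RefSeq synonyms, and Apol7e and Ly6g under no symbol. The alternatives are named in the closing section. The steps were tested on simulated data. These held no transcripts as short as those of Apoa2 and Apoc1 and, for the ratios, no genes that were low in both libraries. Python 3.11.15, numpy 2.4.6, pandas 2.3.3, scipy 1.17.1 and matplotlib 3.10.9 were used.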

Additional observations from a re-analysis of the deposited data

How the results depend on the processing

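No paired analysis was possible because there was 1 library for each condition, and none could be left out. Under the alternatives run, namely 0.1 RPKM as pseudocount, all genes unfiltered, a minimum mean of 5 RPKM, centring on the median, upper quartile scaling, scaling to the macrophage markers, the highest row of each symbol, 2-fold and, added after seeing the data, correction for GC content and length, each member kept its direction. Apoa2 stayed the member past the threshold, with log2 ratios from -4.95 to -3.08, and Apoe ranged from -0.58 to -0.41. Apoc1 was filtered out at a mean of 5 RPKM, and Apoc2 had no length for the correction. Abcg1 and Nr1h3 came nearest to 0, at 0.0037 and 0.066.

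The counts of all genes, 314 higher and 255 lower at 3-fold, were 532 and 480 with a pseudocount of 0.1, 127 and 101 at a minimum mean of 5 RPKM, and 763 and 744 at 2-fold, settings that by construction change how many genes can pass. The median of all genes was 0 after centring, -0.037 with upper quartile scaling and -0.011 after scaling to the macrophage markers. The median of the lipid-associated macrophage genes was -0.042 at that minimum and -0.019 with upper quartile scaling. After correction for GC content and length that of the LXR partners was -0.017 and that of the lipase partners -0.078, and the cause was not tested further. The further apolipoproteins and the apolipoprotein L family had under 3 genes past the filter and so no median to compare. Depth limits Apoa2, with 1 fragment in the clodronate library, and Apoc1, with under 10 estimated fragments in each. The vehicle library listed 9783 genes at 0 against 9158 in the clodronate library. By the estimate of fragments it was the deeper one, if the authors applied no further scaling.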
